A study of Mus musculus with 12 samples.

Results

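A set of 9 genes of the epithelial cell junctions was followed in ileal mucosa: 5 claudins (Cldn2, Cldn3, Cldn4, Cldn7 and Cldn15), occludin (Ocln), the scaffold ZO-1 (Tjp1), the adhesion molecule JAM-A (F11r) and paracingulin (Cgnl1). They were chosen by symbol, taking every probe set that the platform annotation ties to exactly 1 of these symbols. This gave 16 of the 22626 probe sets tested and all 9 genes, out of 12393 genes measured. The scrapings came from male C57BL/6 mice aged 6 to 8 weeks, in 4 groups of 3 arrays, and RNA of 3 mice was pooled for each array (9 mice in a group). The groups were POR-null mice (null for cytochrome P450 reductase, which passes electrons to microsomal P450 enzymes) on quercetin, POR-null mice on control diet, wild-type mice on quercetin and wild-type mice on control diet. All mice were adapted for 14 days to the soya-free RM3 powdered diet. They then had that diet alone (control) or with quercetin, a plant flavonol, at 6.2 g per kg (7 mg per mouse), and were killed after 24 h. Whether the deletion was limited to some tissues is not given in the labels, and Por itself was not analysed here. The study asked how the ileum responds to dietary quercetin with and without the reductase.

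Tight junctions seal the space between neighbouring enterocytes just below the brush border. Claudins form the strands: some, such as claudin-2 and claudin-15, are paracellular channels for sodium and other small cations, and others, such as claudin-3 and claudin-4, tighten the seal. Occludin and JAM-A are further membrane proteins of the junction, ZO-1 ties the strands to actin, and paracingulin is a plaque protein of tight and adherens junctions. In the small intestine the cation channels return sodium to the lumen for sodium-coupled nutrient uptake.

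The deposited values are log2 levels, so a difference of 1 is a 2-fold change, and a level is meaningful only for its own probe set across arrays. Where a gene has several probe sets, the brightest on average across the 12 arrays stands for it. All 9 of these lay above the median of all probe sets, so no gene was lost to a filter on low values. The label of epithelial ileum was checked on defining markers. The epithelial markers Epcam, Krt8, Krt19 and Cdh17 averaged 12.61, 12.98, 12.26 and 11.33, and Krt18 and Cdh1 averaged 10 and 9.71. Of 6 ileal segment genes, the means ran from 6.58 (Slc10a2) and 6.63 (Fgf15) to 12.42 (Fabp6), and those of 7 proximal genes from 6.35 to 12.12, so these levels do not place the scrapings along the intestine. Across arrays, the mean of 6 epithelial markers, each centred on its own mean, stayed between -0.08 and 0.10. Array medians lay between 5.91 and 5.96. Wild-type control replicate 2 stood apart at -25.6 on the first principal component (19.7% of the variance), with the other 11 arrays between -10.8 and 10.6. For 7 genes typical of proximal small intestine its mean score, each gene centred on its own mean, was 0.82, against -0.40 to 0.25 on the others. Where leaving out wild-type control replicate 2 moved a printed difference of the 9 genes by over 1.5 times, the value without it is also given. Wild-type quercetin replicate 2 stood apart on the mean score of 3 colon genes (Car1, Car4 and Aqp8), at 1.48 against -0.435 to 0.332 on the others. The 3 genes did not move together, as 2 were higher and 1 lower on quercetin in wild type. Their summed linear level did not set the group apart. It was 906.7 to 2254 in wild-type quercetin and 1304 to 2571 in wild-type control scrapings. The part of this in the junction gene differences was not tested.

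Differences were tested with limma over all 22626 probe sets, with Benjamini-Hochberg adjustment and a threshold of 0.05. None of the 9 genes passed in any comparison. Over all probe sets the share that passed was 0.00442% for quercetin in wild type and 0% for quercetin in POR-null mice, for the genotypes on either diet, for the interaction and for both average effects. The genes below are therefore described by their levels, differences and errors.

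**Figure D1:**
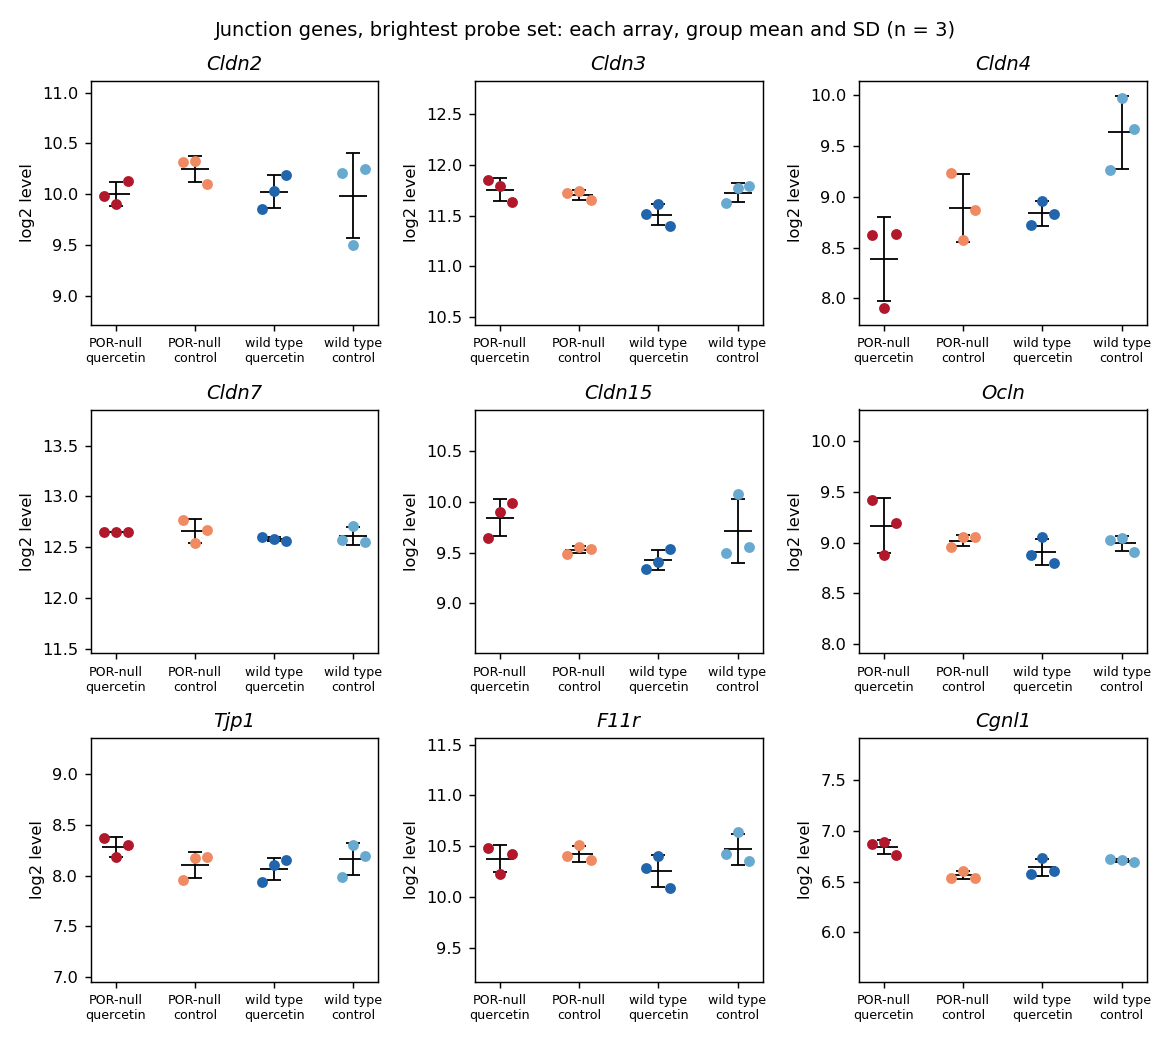
Log2 level (y axis, each panel spanning 2.4 units around its own centre) of the 9 junction genes in POR-null quercetin, POR-null control, wild-type quercetin and wild-type control scrapings. Coloured points are arrays, black bars the group mean and SD (n = 3); Cldn4 spreads most over the 12 arrays, and Cldn7 least.

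Cldn4 encodes a sealing claudin and had the widest range of the 9 genes, 2.06 over the 12 arrays. Its levels were 8.62, 7.91 and 8.63 in POR-null quercetin scrapings and 9.23, 8.57 and 8.87 in POR-null controls. They were 8.72, 8.96 and 8.83 in wild-type quercetin scrapings and 9.26, 9.97 and 9.67 in wild-type controls. Wild-type control was thus the highest group and did not overlap with the groups it was compared with. POR-null control (8.89 ± 0.33, SD, n = 3) and wild-type quercetin (8.84 ± 0.12) overlapped, and POR-null quercetin was lowest (8.39 ± 0.41).

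In wild type, Cldn4 was lower on quercetin by -0.80 ± 0.21 (log2, SE; 0.576 of the control level), with limma adjusted p = 0.269. In POR-null mice the difference was -0.50 ± 0.21 (adjusted p = 0.726). The interaction of the 2 responses was 0.29 ± 0.30, with a 95% interval from -0.35 to 0.94, so a difference between the genotypes in this response was not resolved. It ran from 0.13 to 0.53 when single arrays were left out, with 0.13 without wild-type control replicate 2 and 0.53 without POR-null quercetin replicate 2. Averaged over genotypes the quercetin difference was -0.65 ± 0.15 (limma adjusted p = 0.492). POR-null mice were lower than wild type by -0.74 ± 0.21 on control diet (adjusted p = 0.334) and by -0.45 ± 0.21 on quercetin (adjusted p = 0.715), and by -0.60 ± 0.15 on average (adjusted p = 0.35). In each of these the quercetin-fed or POR-null group had the lower Cldn4 level. The 7 proximal small intestine genes were all lower on quercetin in wild type (median -0.35), but 5 lower and 2 higher (median -0.02) without wild-type control replicate 2. In POR-null mice 6 of the 7 were higher on quercetin (median 0.31). Between the genotypes on control diet, 6 of the 7 were lower in POR-null mice (median -0.37). Without wild-type control replicate 2, 5 were lower there and 2 higher (median -0.20). Between the genotypes on quercetin, 5 were higher in POR-null mice and 2 lower (median 0.13). Cldn4 was lower in each of these comparisons, and the part of the proximal genes in its differences was not tested.

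Single arrays set part of these sizes. Without wild-type control replicate 2, which held the highest Cldn4 level, quercetin in wild type differed by -0.63 and POR-null from wild type on control diet by -0.58 (limma adjusted p = 0.544 and 0.5). POR-null differed from wild type on quercetin by -0.21 without POR-null quercetin replicate 2. The POR-null response was -0.27 without that array and -0.33 without POR-null control replicate 1.

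Cldn3 and Cldn4 are neighbours on chromosome 5 with no other gene listed between them in the GRCm38.p6 gene table, and their levels correlated with r = 0.07 over the 12 arrays. The first 300 bases around the start sites of Cldn4 and Cldn3 are shown with those of Cldn15 and Cldn2, the claudins with the next widest ranges, since these 4 genes carry most of the variation among the claudins. Sequences are from RefSeq (GRCm38.p6), 250 bases before to 50 after the annotated start, 5′ to 3′ on the gene's strand; all 9 genes matched that table, with 11 promoters. Capitals mark matches on either strand to 4 short motifs: the AP-1 site TGACTCA, the E-box CAGGTG bound by Snail-type repressors, the GC box GGGCGG and the CDX site TTTATG. No marked matches overlap.
Cldn4, chr5:134946885-134947184, minus strand: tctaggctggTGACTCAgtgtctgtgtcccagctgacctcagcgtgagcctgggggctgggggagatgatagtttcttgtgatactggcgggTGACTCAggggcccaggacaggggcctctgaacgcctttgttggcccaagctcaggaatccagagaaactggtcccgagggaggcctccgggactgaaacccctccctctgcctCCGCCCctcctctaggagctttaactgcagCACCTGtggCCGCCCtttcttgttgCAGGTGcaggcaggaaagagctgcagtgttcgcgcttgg
Cldn3, chr5:134985964-134986263, plus strand: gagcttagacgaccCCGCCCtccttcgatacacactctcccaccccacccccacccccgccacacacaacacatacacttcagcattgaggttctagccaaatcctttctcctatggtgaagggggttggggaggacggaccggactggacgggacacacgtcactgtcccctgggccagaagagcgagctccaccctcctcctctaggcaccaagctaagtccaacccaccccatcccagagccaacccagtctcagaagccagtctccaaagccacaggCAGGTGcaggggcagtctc
Cldn15, chr5:136967619-136967918, plus strand: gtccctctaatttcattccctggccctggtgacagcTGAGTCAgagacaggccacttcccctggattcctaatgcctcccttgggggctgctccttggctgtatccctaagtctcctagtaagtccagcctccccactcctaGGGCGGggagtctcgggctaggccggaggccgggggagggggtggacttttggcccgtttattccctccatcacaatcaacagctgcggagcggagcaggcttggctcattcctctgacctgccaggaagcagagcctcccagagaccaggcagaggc
Cldn2, chrX:139800558-139800857, plus strand: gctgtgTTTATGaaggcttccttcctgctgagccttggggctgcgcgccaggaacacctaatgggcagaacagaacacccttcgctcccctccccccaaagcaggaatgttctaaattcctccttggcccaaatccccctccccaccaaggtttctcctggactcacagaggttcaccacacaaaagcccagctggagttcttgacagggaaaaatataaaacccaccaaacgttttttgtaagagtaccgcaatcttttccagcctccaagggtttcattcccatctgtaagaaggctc
The Cldn4 window held 2 AP-1 sites, starting at bases -240 and -158 from the start site, and 2 E-boxes, at bases -14 and 12. The Cldn3 window held 1 E-box, at base 32, and no AP-1 site, while Cldn15 held 1 AP-1 site at base -214 and Cldn2 held 1 CDX site at base -244. Among all 32851 promoters of this length, 5.20% held the AP-1 site, 20.2% the E-box, 35.7% the GC box and 11.9% the CDX site. Of the 9 genes, 3 had an AP-1 match in a promoter window, 5 an E-box, 8 a GC box and 1 a CDX site. Counted by promoter, as in those shares, 3 of the 11 windows held the AP-1 site, 6 the E-box, 9 the GC box and 1 the CDX site. A match is a description of these letters and was not tested for binding.

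Cldn3, the second sealing claudin of the set, had its lowest level in wild-type quercetin scrapings. Its levels were 11.85, 11.79 and 11.63 in POR-null quercetin and 11.72, 11.74 and 11.65 in POR-null control scrapings. In wild type they were 11.52, 11.61 and 11.40 on quercetin and 11.62, 11.77 and 11.79 on control diet. On this brightest probe set the wild-type quercetin arrays lay below all 9 other arrays, and the other 3 groups overlapped. On each of the other Cldn3 probe sets the wild-type quercetin and wild-type control arrays overlapped. Those with means of 11.60 and 11.25 also overlapped between the genotypes on quercetin.

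The quercetin difference in wild type was -0.22 ± 0.08 (limma adjusted p = 0.366) and that between POR-null and wild type on quercetin 0.25 ± 0.08 (adjusted p = 0.577), with an interaction of 0.27 ± 0.11 (adjusted p = 0.461). The 3 other Cldn3 probe sets gave 0.20 to 0.28 for POR-null over wild type on quercetin, close to the brightest. On control diet they gave 0.10 to 0.15, while the brightest averaged 11.70 in POR-null and 11.73 in wild-type scrapings. With the 4 probe sets averaged, POR-null exceeded wild type by 0.16 over both diets (limma adjusted p = 0.544). For quercetin in wild type they gave -0.18, -0.12 and -0.11. The interaction was 0.15 (adjusted p = 0.598) when the 4 probe sets were averaged. Of the 4 probe sets, 2 carry a suffix for probes that may also match other transcripts (_x_at).

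Cldn15 encodes a sodium channel of the intestinal tight junction. POR-null scrapings had 9.64, 9.90 and 9.99 on quercetin and 9.49, 9.56 and 9.54 on control diet. Wild-type scrapings had 9.34, 9.41 and 9.54 on quercetin and 9.50, 10.08 and 9.56 on control diet. The 3 POR-null quercetin arrays lay above all POR-null control and all wild-type quercetin arrays, and wild-type control replicate 2 exceeded every other array.

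POR-null mice on quercetin differed from wild type on quercetin by 0.41 ± 0.13 (limma adjusted p = 0.57) and from POR-null controls by 0.31 ± 0.13 (adjusted p = 0.726). In wild type the quercetin difference was -0.28 ± 0.13 (adjusted p = 0.459), but -0.10 ± 0.10 without wild-type control replicate 2. The fit gave an interaction of 0.60 ± 0.19 (adjusted p = 0.394). Without wild-type control replicate 2 the interaction was 0.41 ± 0.14 (adjusted p = 0.437). The difference between the genotypes on quercetin does not use that array, so its 0.41 could not change. Its limma adjusted p of 0.265 in that fit came with a smaller estimate of the spread (SE 0.09 in place of 0.13).

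Cldn2, the cation and water channel best known from crypts, was 9.98, 9.90 and 10.13 in POR-null quercetin and 10.32, 10.33 and 10.10 in POR-null control scrapings. It was 9.86, 10.03 and 10.19 in wild-type quercetin and 10.21, 9.50 and 10.25 in wild-type control scrapings. All groups that were compared overlapped. Its smallest p belonged to POR-null over wild type on control diet (0.26 ± 0.16, limma adjusted p = 0.593), and that difference was 0.02 without wild-type control replicate 2. Cldn2 and Cldn15 correlated with r = -0.51 over the 12 arrays, but with r = -0.10 over the 11 arrays without wild-type control replicate 2, a check added after seeing the data. The arrays share groups and that array, on which Cldn2 had its lowest and Cldn15 its highest level. The second Cldn2 probe set, with a mean of 7.98, followed the first with r = 0.38 only, and also had its lowest level, 7.48, on that array.

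Cldn7, a claudin of the whole lateral membrane that binds Epcam, varied least, by 0.23 over the 12 arrays. It was 12.65 on each of the 3 POR-null quercetin arrays and 12.77, 12.54 and 12.67 in POR-null controls. It was 12.60, 12.58 and 12.56 in wild-type quercetin scrapings and 12.57, 12.71 and 12.55 in wild-type controls. The POR-null quercetin arrays lay just above the wild-type quercetin arrays, by 0.07 ± 0.07 (limma adjusted p = 0.866), with a 95% interval from -0.09 to 0.23. That difference was 0.03 after quantile normalization and 0.04 after centring each array on its median. The 95% interval for quercetin was -0.19 to 0.13 in wild type and -0.17 to 0.15 in POR-null mice, and the difference in wild type was -0.03 with all arrays and 0.02 without wild-type control replicate 2.

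**Figure D2:**
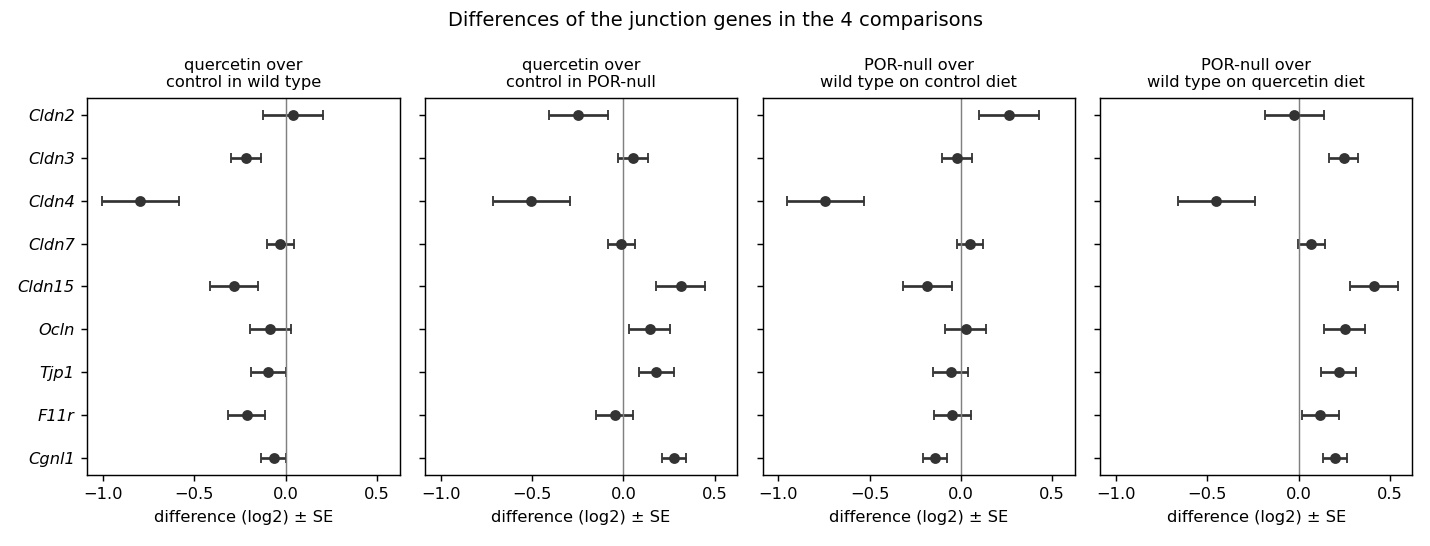
Difference in log2 level (x axis, point with SE bar from limma, 12 arrays) of each junction gene (rows) in the 4 comparisons (panels). Cldn4 lies left of 0 in all 4 panels, from -0.80 to -0.45, and 7 of the 9 genes lie right of 0 for POR-null over wild type on quercetin.

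Among the other membrane proteins, Ocln was 9.42, 8.88 and 9.19 in POR-null quercetin scrapings and 8.96, 9.05 and 9.05 in POR-null controls. In wild type it was 8.88, 9.05 and 8.80 on quercetin and 9.03, 9.04 and 8.91 on control diet. The groups overlapped. POR-null over wild type on quercetin was 0.25 ± 0.11 (limma adjusted p = 0.696), and 0.13 without POR-null quercetin replicate 1 or 0.40 without POR-null quercetin replicate 2, so single pools set its size.

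F11r, whose product JAM-A is an immunoglobulin-like adhesion molecule also made by leukocytes and platelets, was 10.48, 10.23 and 10.42 in POR-null quercetin and 10.40, 10.51 and 10.36 in POR-null control scrapings. It was 10.28, 10.40 and 10.09 in wild-type quercetin and 10.42, 10.64 and 10.35 in wild-type control scrapings. All groups compared overlapped. The smallest p was for quercetin in wild type (-0.21 ± 0.10, limma adjusted p = 0.464), and the value was -0.13 without wild-type control replicate 2 or without wild-type quercetin replicate 3, and -0.10 (adjusted p = 0.61) with both F11r probe sets averaged. The second F11r probe set averaged 5.02, below the median of all probe sets, and differed there by 0.02 ± 0.07. The mean score of 8 leukocyte genes was -0.01 to 0.35 in wild-type quercetin and -0.21 to 0.01 in wild-type control scrapings. That of 3 platelet genes was -0.08 to 0.04 and 0.02 to 0.04. The part of these cells in the F11r difference was not tested.

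Of the plaque proteins, Tjp1 was 8.37, 8.18 and 8.30 in POR-null quercetin and 7.96, 8.17 and 8.18 in POR-null control scrapings. It was 7.94, 8.10 and 8.15 in wild-type quercetin and 7.99, 8.30 and 8.19 in wild-type control scrapings. The POR-null quercetin arrays lay above the wild-type quercetin arrays, by 0.22 ± 0.10 on average (limma adjusted p = 0.689), and touched the POR-null control arrays at 8.18. The other groups compared overlapped.

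Cgnl1 had the smallest p of the 9 genes in a pairwise comparison. It was 6.87, 6.89 and 6.76 in POR-null quercetin and 6.54, 6.61 and 6.54 in POR-null control scrapings. In wild type it was 6.58, 6.73 and 6.61 on quercetin and 6.72, 6.71 and 6.69 on control diet. In POR-null mice the 2 diets did not overlap, and POR-null arrays lay above wild-type arrays on quercetin and below them on control diet.

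The quercetin difference in POR-null mice was 0.28 ± 0.07 (limma adjusted p = 0.512), and in wild type it was -0.07 ± 0.07 (-0.04 without wild-type quercetin replicate 1, -0.11 without replicate 2). The interaction was 0.34 ± 0.09 (adjusted p = 0.351). On quercetin, POR-null exceeded wild type by 0.20 ± 0.07 (adjusted p = 0.581), and the quercetin difference averaged over genotypes was 0.11 ± 0.05 (adjusted p = 0.659). A second Cgnl1 probe set, with a mean of 5.33, gave 0.22 ± 0.08 for quercetin in POR-null mice and an interaction of 0.26 ± 0.12. The third, with a mean of 3.73 below the lower quartile of all probe sets, gave 0.06 ± 0.11 and 0.06 ± 0.15. With the 3 probe sets averaged, the quercetin difference in POR-null mice was 0.18 and the interaction 0.22.

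**Figure D3:**
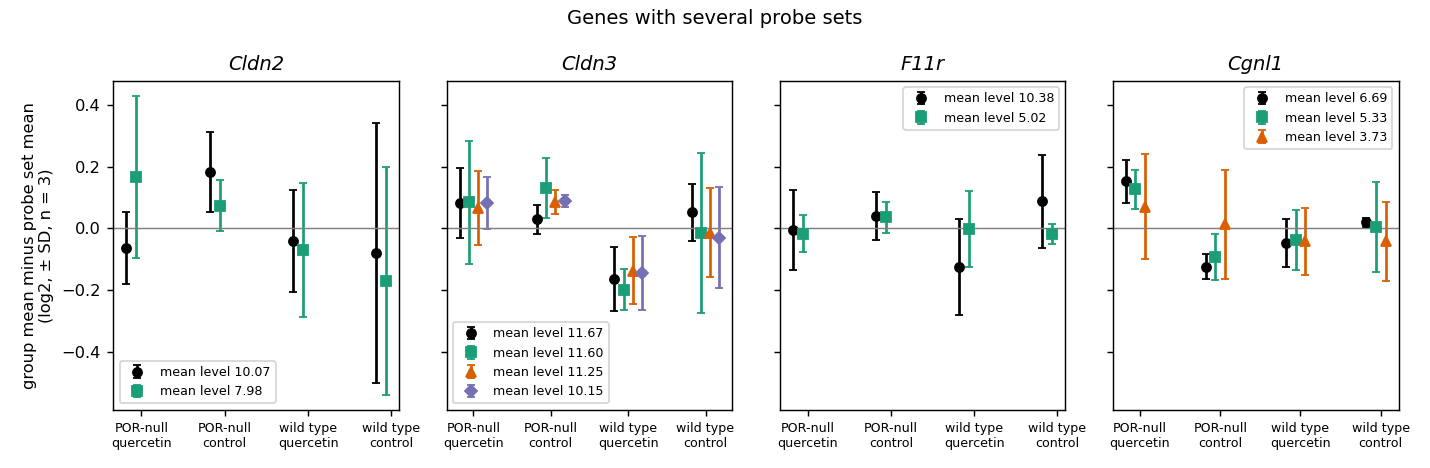
Group mean minus the probe set's mean over the 4 groups (y axis, log2, bars ± SD, n = 3) for the 4 junction genes with several probe sets; each symbol is 1 probe set, with its mean level in the legend. All 4 Cldn3 probe sets are lowest in wild-type quercetin scrapings, and all 3 Cgnl1 probe sets are highest in POR-null quercetin scrapings.

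Counted together, the 9 genes had the highest count at an unadjusted p under 0.05 between the genotypes on quercetin. There 7 were higher and 2 lower in POR-null mice, with a median difference of 0.20, where the median of all 12393 genes was 0.02. At an unadjusted p under 0.05, 5 of the 9 (Cldn3, Cldn15, Ocln, Tjp1 and Cgnl1) were higher, where 3.87% of all probe sets were. The groups did not overlap for 6 of the 9, 5 higher and Cldn4 lower, where 12.3% of all probe sets did not overlap in either direction. In the same comparison 5 of 6 ileal segment genes were lower in POR-null mice, 3 of them at an unadjusted p under 0.05 (smallest limma adjusted p = 0.181). Their summed linear level was 12890 to 14090 in POR-null quercetin against 16450 to 17150 in wild-type quercetin scrapings, without overlap. Of 8 leukocyte genes, 4 were higher and 4 lower, and the 4 lower ones, among them the B cell genes Cd79a, Cd79b and Ms4a1, had an unadjusted p under 0.05 (smallest limma adjusted p = 0.132). The leukocyte sums were 919.7 to 1128 in POR-null quercetin against 1120 to 1430 in wild-type quercetin scrapings. The part of these lists in the junction gene differences was not tested.

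The other comparisons gave lower counts. For quercetin in wild type, 8 of 9 were lower (median -0.10, all genes -0.02), and 2 had an unadjusted p under 0.05 (10.9% of all probe sets) and 2 did not overlap (13.4%). For quercetin in POR-null mice, 5 were higher and 4 lower (median 0.05, all genes 0.02), with 3 at an unadjusted p under 0.05 (6.65%) and 2 not overlapping (12.6%). For POR-null over wild type on control diet, 3 were higher and 6 lower (median -0.05, all genes -0.02), with 1 at an unadjusted p under 0.05 (10.1%) and 2 not overlapping (13.9%). In the interaction 8 of 9 were positive (median 0.27, all genes 0.03), with 3 at an unadjusted p under 0.05 (10.3%). The comparisons share arrays, in particular the wild-type quercetin arrays, on which the mean of the 9 genes, each centred on its own mean, was -0.16, -0.03 and -0.11. On the POR-null quercetin arrays that mean was 0.08, -0.09 and 0.06. The genes were not one block: of the 36 pairs, 24 correlated positively and 12 negatively over the 12 arrays, with a median r of 0.22 and the highest r of 0.70 between Cldn15 and Tjp1. Without wild-type control replicate 2 the counts were 23 and 13, with a median r of 0.18.

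**Figure D4:**
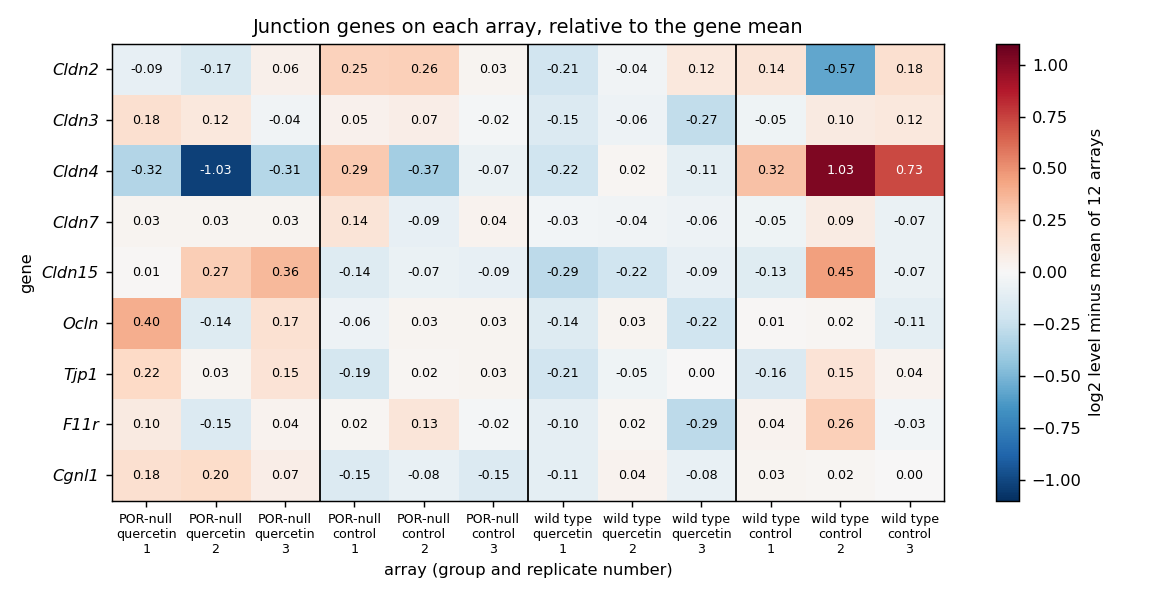
Log2 level of each junction gene (rows) on each of the 12 arrays (columns, grouped by genotype and diet) minus the gene's mean over the arrays, in colour and figures. Wild-type control replicate 2 holds the highest level of Cldn4, Cldn15 and F11r and the lowest of Cldn2, and POR-null quercetin replicate 1 the highest of Cldn3, Ocln and Tjp1.

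Wild-type control replicate 2 was the extreme array for 4 of the 9 genes. It also held the highest score for proximal small intestine genes. The summed linear level of these 7 genes was 7447 to 8775 in POR-null quercetin, 6078 to 7232 in POR-null control, 5247 to 9631 in wild-type quercetin and 7269 to 15320 in wild-type control scrapings. Markers of other cell types differed between the genotypes too, none past the threshold. All 8 smooth muscle genes were higher in POR-null mice on quercetin (median 0.82). The 8 smooth muscle genes summed to 931.2 to 1600 in POR-null quercetin and 576.3 to 2032 in POR-null control scrapings, against 465.2 to 1210 in wild-type quercetin and 489.6 to 772.4 in wild-type control scrapings. The 5 goblet cell genes scored -0.06 to 0.11 and -0.11 to -0.03 in POR-null mice on quercetin and control diet, against -0.18 to 0.06 and 0.08 to 0.12 in wild type. The 4 Paneth cell genes scored 0.16 to 0.47 in POR-null quercetin against -0.18 to 0.24 in wild-type quercetin scrapings. None of these lists held a value at 0, since the scale has none, and the part of these lists too was not tested. In such bulk RNA fewer cells of a type and less RNA per cell cannot be told apart.

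The wider junction machinery was read from 8 lists of 98 genes, of which 84 were measured. No gene of these lists passed in any comparison. For POR-null over wild type on quercetin, 54 were higher and 29 were lower, where 6877 of all 12393 genes were higher and 5355 lower. The median was 0.04 (all genes 0.02). At an unadjusted p under 0.05 there were 6, of which 5 were higher. The share of these 6 was near the 7.01% of all probe sets in either direction. The 10 other tight junction membrane proteins are detailed because they held the largest share of the 8 lists. Of them 8 were higher (median 0.11), 4 at an unadjusted p under 0.05. Cxadr, an adhesion protein that is also a virus receptor, was 8.27 ± 0.04 in POR-null quercetin and 8.24 ± 0.06 in POR-null control scrapings, against 7.97 ± 0.09 in wild-type quercetin and 8.02 ± 0.14 in wild-type control scrapings (SD, n = 3). It differed by 0.30 ± 0.08 on quercetin and 0.22 ± 0.08 on control diet (limma adjusted p = 0.444 and 0.394). Marveld3, a relative of occludin, was 7.87 ± 0.05 in POR-null quercetin against 7.56 ± 0.14 in wild-type quercetin scrapings, a difference of 0.31 ± 0.10 (limma adjusted p = 0.577). Lsr, a protein of the corners where 3 cells meet, was higher in POR-null mice on control diet by 0.24 ± 0.08 (adjusted p = 0.381).

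In POR-null mice most genes of the adhesive junctions beneath had lower values on quercetin, none past the threshold. Of 10 desmosome genes 9 were lower (median -0.06), with Dsp, whose product desmoplakin anchors keratin filaments, at 9.96 ± 0.18 on quercetin and 10.32 ± 0.21 on control diet (-0.36 ± 0.11, limma adjusted p = 0.668). The plakoglobin gene Jup differed by -0.21 ± 0.08 (adjusted p = 0.72). Of 11 adherens junction genes 8 were lower (median -0.08), among them the p120 catenin gene Ctnnd1 (-0.23 ± 0.08) and Plekha7 (-0.21 ± 0.08), with limma adjusted p = 0.697 and 0.72. In wild type 7 of the 10 desmosome genes and 7 of the 11 adherens junction genes were lower on quercetin, with medians of -0.04 and -0.02. Of all 12393 genes, 5330 were lower on quercetin in POR-null mice (median 0.02) and 6986 in wild type (median -0.02). Lower values in POR-null mice were not particular to adhesive junctions, as 8 of 10 perijunctional actomyosin genes were lower too (median -0.05). Of the 84 other junction genes, 46 were lower there, with 6 at an unadjusted p under 0.05 (6.65% of all probe sets).

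Of 13 other claudins measured, Cldn1 differed by -0.39 ± 0.15 with quercetin in POR-null mice and Cldn10 by -0.23 ± 0.09 between POR-null and wild type on control diet (limma adjusted p = 0.711 and 0.411). Cldn1 and Cldn10 averaged 5.61 and 5.40, below the median of all probe sets (5.93). Of 10 other scaffold genes and 15 polarity genes, none had an unadjusted p under 0.05 in a pairwise comparison; Tjp3, a paralogue of Tjp1, was closest (0.24 ± 0.11, POR-null over wild type on control diet). Of 10 perijunctional actomyosin genes, the myosin light chain kinase gene Mylk, which smooth muscle also expresses, was higher in POR-null mice on control diet by 0.36 ± 0.16. The smooth muscle genes were higher there too, and their part in the Mylk difference was not tested. Limch1, an activator of non-muscle myosin, differed by 0.20 ± 0.08 with quercetin in POR-null mice. Its mean of 4.70 lay below the lower quartile of all probe sets (4.74). The 5 gap junction genes held none with an unadjusted p under 0.05 in a pairwise comparison.

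**Figure D5:**
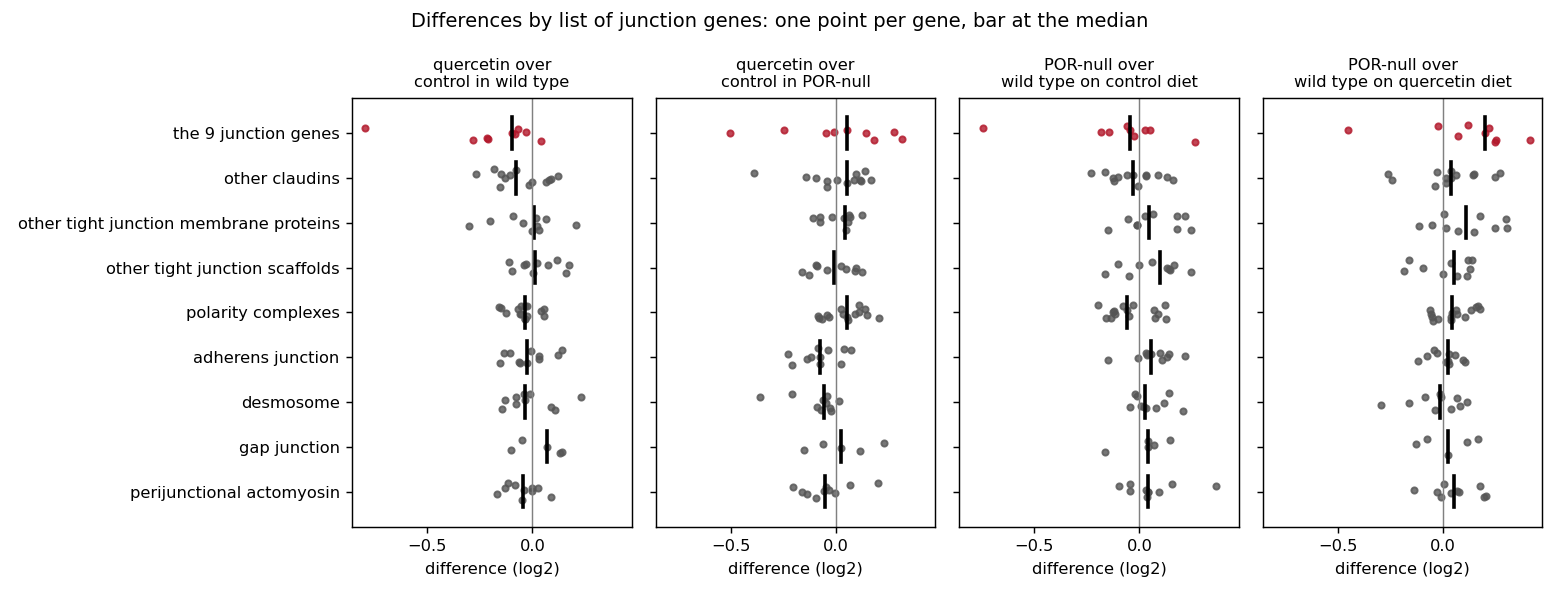
Difference in log2 level (x axis) in the 4 comparisons (panels) for the 9 junction genes (red) and 8 lists of other junction genes (grey), 1 point per gene with a black bar at the median. The red points run from -0.80 to 0.41, and the medians of the grey lists lie between -0.08 and 0.11.

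For each gene, the levels of all 12392 other genes were ranked by Pearson r over the 12 arrays, as a description. The closest to Cldn4 were Nptx1 (r = 0.93), Polr3k (0.91) and Pigt (0.89), and the closest to Cgnl1 were Heyl (0.93), Dkkl1 (0.90) and Igf2 (0.88). For Cldn15 they were Ercc1, Dapk2 and Prss8, each with r = 0.86. For Cldn3 they were Ift80 (0.91), Ms4a4d (0.91) and Cyp2c29 (0.88), for Cldn2 Zranb2 (0.94), Sgms1 (0.91) and G3bp1 (0.86), and for Cldn7 Mrvi1 (0.94), Fn1 (0.90) and Zfp707 (0.90). Ocln was closest to Irs2 (0.91), Ensa (0.87) and Scn8a (0.86), F11r to Efhd1 (0.90), Adipor2 (0.88) and Ptprr (0.87), and Tjp1 to Tpbg (0.85), Nmur2 (0.84) and Ercc1 (0.82). These points share arrays and groups, and the highest of so many values over 12 arrays is large by selection.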

How the data were processed

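RNA from ileal mucosal scrapings was hybridised to Affymetrix 430A arrays. The authors deposited a log2 level for each probe set on each array. Both MAS5 and RMA appear in the submitters' processing notes, without version or stated role, so the method behind these values is not given in the sources used here. Values ran from 2.66 to 14.04 and were used as deposited.

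The 64 array controls among the 22690 probe sets were not tested. The platform annotation gave 1 symbol to 20380, and 20351 of these were matched by gene ID to the GRCm38.p6 gene table. Group means were fitted by lmFit and eBayes (limma 3.58.1, R 4.3.3; 12 arrays, 8 residual and 5.59 prior degrees of freedom), with Benjamini-Hochberg adjustment over all 22626 probe sets; the test was tried on simulated data. The median SE was 0.0886 (log2) for a pairwise difference, and the number of arrays limits the precision. Genes, lists and tests were chosen with earlier results of these data known. Every one of the 9 genes is described. A difference is given where its unadjusted p is smallest among the pairwise comparisons, or under 0.05, and 6 more are printed beside these; of each other list up to 3 genes with the smallest p could be named. Alternatives were 2 normalizations, 2 filters on dim probe sets, another variance model, weighted arrays, a block for replicate number, a fit restricted to the 2 groups compared, averaging a gene's probe sets, and omission of each array in turn. Figures used Python 3.11.15 and matplotlib 3.10.9.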

Additional observations from a re-analysis of the deposited data

Results flagged for a closer look

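The brightest Cgnl1 probe set differed in opposite directions between the genotypes on the 2 diets. On quercetin all 3 POR-null arrays (6.76 to 6.89) lay above all 3 wild-type arrays (6.58 to 6.73), while on control diet all 3 POR-null arrays (6.54 to 6.61) lay below all 3 wild-type arrays (6.69 to 6.72). The test of this difference, limma's interaction of 0.34 ± 0.09, did not pass (adjusted p = 0.351, range over the alternatives 0.25 to 0.602). For POR-null over wild type on control diet, the second Cgnl1 probe set gave -0.10 with overlapping groups. The third gave 0.06, and all 3 averaged gave -0.06. On quercetin the same 3 values were 0.16, 0.11 and 0.16. Over all probe sets, 12.3% did not overlap between the genotypes on quercetin and 13.9% on control diet.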

How the results depend on the processing

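None of the 9 genes passed limma's adjusted threshold under any alternative, in any of the 7 comparisons (144 counts, all 0). For the 26 differences of the brightest probe sets recomputed under the alternatives, 536 of 539 values kept their sign, with adjusted p from 0.068 (Cldn4, quercetin in wild type) to 0.999. The 3 exceptions were small quercetin differences of Cldn7. In POR-null mice its value was -0.01 as reported, 0.0026 after quantile normalization and -0.07 to 0.045 with single arrays left out. In wild type it was -0.03 as reported and -0.06 to 0.02 with single arrays left out. In 35 of the 539 a difference moved by over 1.5 times. Many of the 539 values could not move. Omitting an array outside a pairwise comparison, another variance model or a filter leaves the difference itself unchanged. The counts of 536 and 35 are therefore no measure of stability. Over the leave-one-out fits Cldn4 differed by -0.98 to -0.63 for quercetin in wild type. With the replicate number as a block the count of junction genes past the threshold was again 0 in each comparison, and Cldn4 for quercetin in wild type had an adjusted p of 0.284. Of 18 same-numbered pairs of arrays, 3 deviated together with r over 0.1. Their r ran from -0.18 to 0.16, against -0.22 to 0.17 for other pairs. With 3 arrays in a group, such correlations cannot decide whether the numbers mark a pairing. Over all probe sets the number past the threshold for quercetin in wild type was 1, but 59 without wild-type control replicate 1 and 5 with the block. The highest numbers under any alternative were 15 for POR-null over wild type on control diet, 9 for the interaction, 6 for the average POR-null effect, 2 for the average quercetin effect and 5 for POR-null over wild type on quercetin, each 0 as reported. Levels near background could not be told from absence, as no detection calls were used.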
